A study of Mus musculus with 20 samples.

Results

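The transcript profile of mouse 8-cell embryos was set against those of 4 other stages of early development: oocytes, 1-cell embryos, 2-cell embryos and blastocysts. The stage was taken from the array titles, which put 4 of the 20 arrays at the 8-cell stage and 4 at each other stage. Total RNA had been amplified in 2 rounds of in vitro transcription and hybridized to Affymetrix MOE430B arrays, which carry the second set of mouse probe sets of that platform. All material is labelled as preimplantation mouse, and the sources used here do not give the strain, the way embryos were collected or cultured, or the number of embryos per array. Replicate arrays are numbered, but nothing says that they came from separate collections, so p-values measure the spread between these arrays, which may be technical.

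At the 8-cell stage the mouse embryo compacts: its blastomeres flatten against each other through adherens junctions and acquire an apical and a basal side. By then the maternal transcripts stored in the oocyte have largely been cleared, the embryonic genome has taken over, and the cells begin to differ in the signals, among them the Hippo pathway, that later separate trophectoderm from inner cell mass. Ribosomes, mitochondria and glucose use also change during this period, which makes the genes of translation and metabolism of interest.

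A probe set is a group of probes for one transcript, and its deposited value is a linear intensity. The values of all arrays had the same trimmed mean, so they are relative to the total signal of an array and not amounts per embryo, and a change in cell number cannot be told apart from a change in RNA per cell. Array medians averaged 92.2 ± 1.40 at the 8-cell stage, against 74.1 ± 5.13 in oocytes, 73.2 ± 4.46 in 1-cell embryos, 85.8 ± 3.22 in 2-cell embryos and 87.4 ± 3.28 in blastocysts (SD, n = 4 each). The 8-cell arrays also had the highest signal for the 18 bacterial bioB, bioC, bioD and cre control probe sets, at 12.61 on the log2 scale, against 10.96, 11.66, 11.51 and 11.63 in oocytes, 1-cell embryos, 2-cell embryos and blastocysts. Their log2 ratio of the 3′ to the 5′ Gapdh control was 0.98 ± 0.37, against 1.99 ± 0.19, 2.12 ± 0.26, 2.22 ± 0.34 and 2.37 ± 0.46 in the same 4 stages. For beta-actin it was 1.92 ± 0.10, against 2.36 ± 0.12, 1.83 ± 0.36, 2.28 ± 0.22 and 1.09 ± 0.27. The part of these differences in the results below was not tested.

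Pairs of 8-cell arrays had a median correlation of 0.839 across probe sets of log2(value + 20), with a range of 0.807 to 0.861. The 8-cell arrays were most like the blastocyst arrays, with a median correlation of 0.723, then the 2-cell arrays with 0.598, the oocyte arrays with 0.442 and the 1-cell arrays with 0.412. These correlations describe arrays over shared probe sets, which are not independent of each other. Replicate 4 of the 8-cell arrays was the least like the others of its stage, with a mean correlation of 0.818.

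Of 15234 probe sets bright enough to be tested, 3058 (20.1%) were higher in 8-cell embryos than the mean of the other stages and 2407 (15.8%) were lower, at an adjusted p under 0.05 in limma. The median log2 difference over all tested probe sets was 0.13, so a small positive value is no departure from the bulk of the array. Dividing each array by its own median moved the split to 2106 higher and 3028 lower, that is, 41.0% of the calls higher in place of 56.0%. Against single stages, 1003 probe sets (6.58%) were higher and 1215 (7.98%) lower than in blastocysts. Against 2-cell embryos 2155 (14.1%) were higher and 2037 (13.4%) lower, against 1-cell embryos 3666 (24.1%) and 2562 (16.8%), and against oocytes 3536 (23.2%) and 2553 (16.8%).

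**Figure D1:**
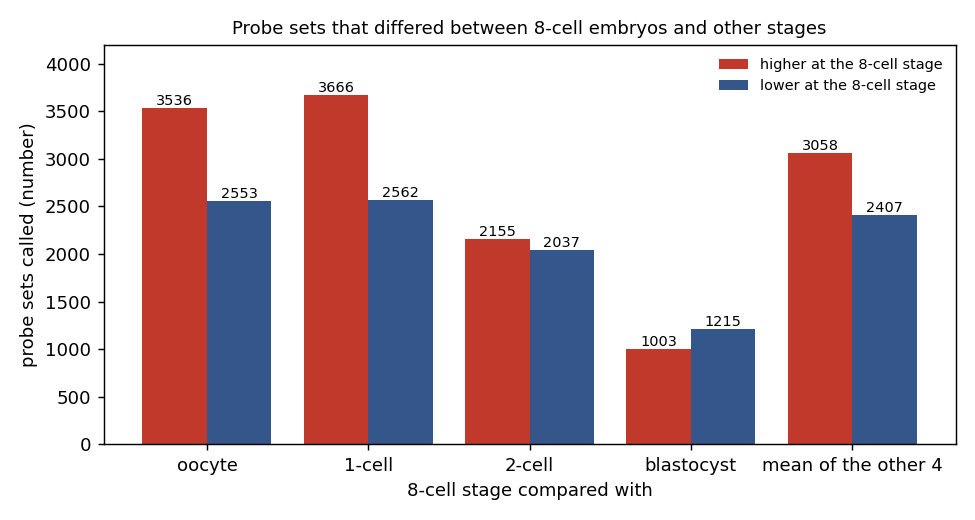
Number of probe sets called higher (red) or lower (blue) at the 8-cell stage, on the y axis, in the comparison with each other stage and with the mean of the other 4, on the x axis (limma, adjusted p under 0.05, 15234 tested). The fewest calls, 1003 higher and 1215 lower, were against blastocysts.

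The criterion for a transcript that marked the 8-cell stage was stricter: it had to be higher, or lower, than at each of the other 4 stages, judged by the largest of 4 one-sided p-values. It was met by 153 probe sets (1.00%) that were higher and 218 (1.43%) that were lower. Of the 153, 129 were at least 2-fold higher than every other stage, and in 150 no 8-cell array overlapped with any array of another stage. Of the 218, 153 were at least 2-fold lower and 189 had no overlap. Over all tested probe sets, 460 (3.02%) had all 4 8-cell arrays above the other 16 and 261 (1.71%) had them all below. A probe set could be bright enough for testing through its 4 8-cell arrays alone, so the 460 and the 261 were not filtered alike. Among the higher probe sets the stage that came closest was the blastocyst in 78, the 2-cell stage in 55, the 1-cell stage in 15 and the oocyte in 5. For the lower ones it was the blastocyst in 133, the 2-cell stage in 54, the oocyte in 22 and the 1-cell stage in 9. The higher probe sets stood for 108 named genes and the lower ones for 188. With the 2-cell arrays left out, 338 probe sets were higher and 332 lower than every remaining stage, and with the 1-cell arrays left out 168 and 225; leaving out oocytes or blastocysts was not run.

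The brightness of a probe set also depends on the probes of a set, so the order among the brightest genes is one of signal and not of molecules. Rpl22, a protein of the large ribosomal subunit, was the brightest named probe set, with 43505, 40945, 32632 and 28987 on the 8-cell arrays. Rpl22 ranked 5 among all probe sets of the 8-cell stage, behind sets that had several symbols or none. It had 5198, 4743, 4910 and 6872 in oocytes, 815, 879, 1206 and 944 in 1-cell embryos, 5074, 5420, 6429 and 4491 in 2-cell embryos and 32313, 31438, 37824 and 21077 in blastocysts. The 8-cell values lay above those of the first 3 stages without overlap and overlapped with those of blastocysts. Against the mean of the other stages Rpl22 rose by 2.74 ± 0.17 (log2 ± SE, limma adjusted p = 2.70e-12).

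Among the 20 brightest named genes, 16 were higher than the mean of the other stages, 1 was lower and 9 were higher than every other stage. These genes were chosen by their 8-cell signal, and since probe sets with several symbols or of the x_at type were left out, 12 of the 20 ranked among the 20 brightest probe sets of the 8-cell stage. Of the 20, 5 ranked among the 20 brightest probe sets of blastocysts, 2 in 2-cell embryos, 1 in 1-cell embryos and 1 in oocytes. Those above every other stage were Fbxl20, Gpd1l, Ppm1a, Obox6, Ypel2, Larp4, Eif5, Mier3 and Tent4b. Fbxl20 is a substrate adaptor of the SCF ubiquitin ligase, Gpd1l a relative of glycerol-3-phosphate dehydrogenase, Ppm1a a serine/threonine phosphatase and Mier3 a component of histone deacetylase complexes.

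Obox6, a homeobox gene of a family expressed in oocytes and early embryos, had 21768, 15915, 16534 and 16086 on the 8-cell arrays. It was between 28.1 and 47.1 in oocytes, between 20.2 and 51.1 in 1-cell embryos, between 6920 and 8849 in 2-cell embryos and between 270 and 304 in blastocysts. All 8-cell values lay above all others, and replicate 1 lay apart from the other 8-cell arrays on the high side. Its difference from the mean of the other stages, 5.87 ± 0.14 (log2 ± SE, limma adjusted p = 1.55e-19), was the largest of any gene named here, and its smallest, against 2-cell embryos, was 1.16 (adjusted p = 0.000188 for the test against every stage).

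Ppm1a had a similar course, with 19500, 15885, 15900 and 21688 on the 8-cell arrays. The other stages had 170 to 183 in oocytes, 137 to 244 in 1-cell embryos, 5873 to 7594 in 2-cell embryos and 1608 to 1847 in blastocysts, again with no overlap. Its 4 other probe sets were called higher than the mean, by 0.71 to 3.84, but none was above every stage (adjusted p = 0.289 or more), and one averaged 2615 at the 8-cell stage, against 2734 in 2-cell embryos. Eif5, which activates the GTPase step of translation initiation, averaged 13980 ± 1929 in 8-cell embryos, against 3496 ± 277 in oocytes, 5014 ± 838 in 1-cell embryos, 4090 ± 216 in 2-cell embryos and 6982 ± 1025 in blastocysts (SD, n = 4 each). Its smallest log2 difference, against blastocysts, was 1.00.

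Other bright genes were shared with neighbouring stages. Tsr1, needed to mature the small ribosomal subunit, averaged 10140 ± 1452 at the 8-cell stage, against 596 ± 52.9 in oocytes, 442 ± 96.6 in 1-cell embryos, 3892 ± 941 in 2-cell embryos and 7343 ± 956 in blastocysts. It was higher than the mean of the other stages by 2.59 ± 0.14 (limma adjusted p = 4.67e-13) but missed the call against every stage (adjusted p = 0.358). Kcnk6, a potassium channel, was likewise 4.00 ± 0.20 higher than the mean and just missed the stricter call (adjusted p = 0.0509). Sf1, which binds the branch point of introns, Ywhaq, a 14-3-3 protein, and Anapc10, a subunit of the anaphase-promoting complex, rose by 0.99, 1.30 and 1.52 against the mean.

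The other 5 bright genes were called neither above nor below every stage by their brightest probe set. Cdca8, a subunit of the chromosomal passenger complex, Dnaja2, a cochaperone, and Fnta, a subunit of farnesyltransferase, differed from the mean by -0.31, 0.33 and 0.14 and were not called (adjusted p = 0.169, 0.0603 and 0.541). A second, dimmer Dnaja2 probe set was 1.40 higher (adjusted p = 1.28e-06). The other 2 Cdca8 probe sets were lower than the mean, at -1.39 and -0.87 (adjusted p = 6.64e-08 and 2.39e-05), and the first of them was below every stage (adjusted p = 0.00940). That call was lost under quantile normalization (adjusted p = 0.181). The bright Dnaja2 probe set was called once 2-cell replicate 1 was left out (0.35, adjusted p = 0.0411). It was also called without all 2-cell arrays (limma adjusted p = 0.00923), under quantile normalization (0.00978) and with a filter at the 75th percentile (0.0378). Bms1, a GTPase of small-subunit maturation, was the one bright gene called lower, at -0.49 ± 0.17 (adjusted p = 0.0317), and this call was lost without 8-cell replicate 1, 2 or 3 (adjusted p = 0.130, 0.107 and 0.0603). Without the 1-cell arrays it was lost as well (adjusted p = 0.0551). The call of Kdm2b, a histone demethylase, at 0.53 (adjusted p = 0.0141), was lost without 8-cell replicate 2 or 3 (adjusted p = 0.0524 and 0.0522). It was also lost under median scaling (0.209) and without the 2-cell arrays (0.1215).

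**Figure D2:**
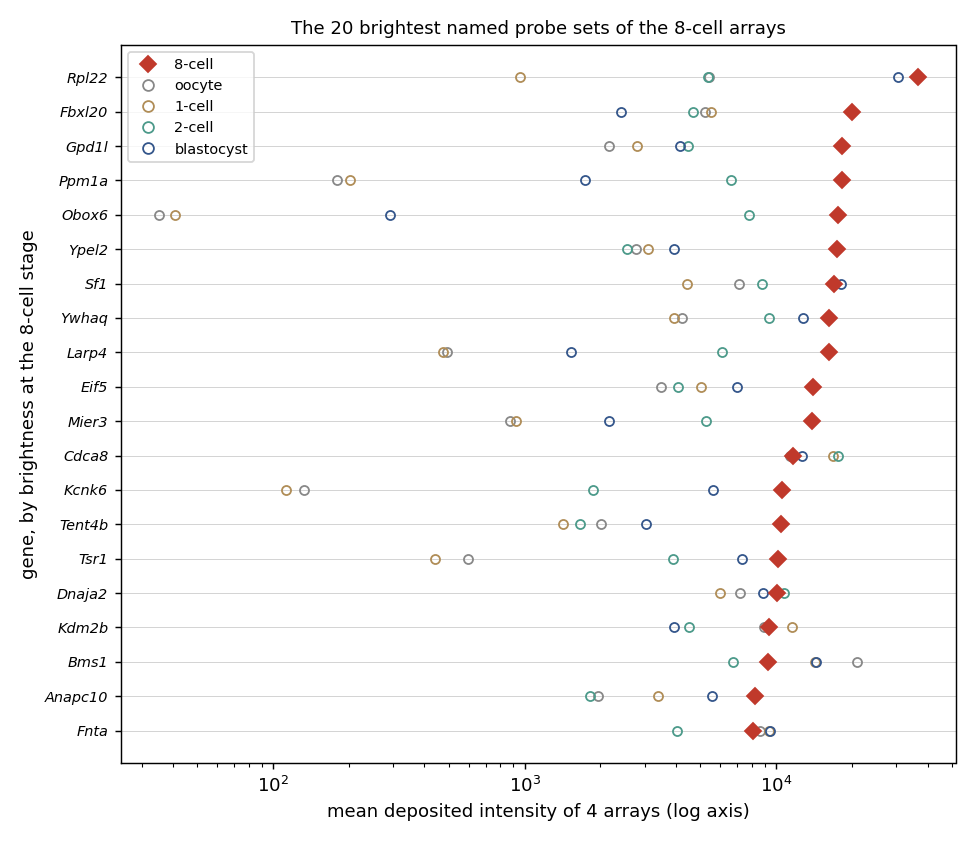
Mean deposited intensity of 4 arrays (x axis, log scale) of the 20 brightest named probe sets of 8-cell embryos (y axis, by 8-cell brightness), with the 8-cell mean as a filled red diamond and the other stages as open circles. Obox6, at 17580 in 8-cell embryos and 35.2 in oocytes, spans the widest range. The 8-cell means of Sf1, Cdca8, Dnaja2, Kdm2b, Bms1 and Fnta lie within the range of the other stages.

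Transcripts higher at the 8-cell stage than everywhere else were led, among named probe sets other than the x_at type, by Cthrc1, a secreted glycoprotein with collagen-like repeats. It had 2239, 2627, 3346 and 3657 on the 8-cell arrays. The other arrays held 108, 123, 99.0 and 89.4 in oocytes, 39.6, 63.7, 181 and 136 in 1-cell embryos, 239, 155, 151 and 192 in 2-cell embryos, and 438, 205, 278 and 266 in blastocysts. Every 8-cell value was thus above every other, and the smallest log2 difference, against blastocysts, was 3.26 (limma adjusted p = 9.47e-08 for the test against every stage).

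Cand1, which exchanges the substrate receptors of cullin-RING ubiquitin ligases, was measured by a pair of probe sets, both higher in 8-cell embryos. The first had 303, 440, 347 and 497 at the 8-cell stage, against at most 12.7 in oocytes, 21.1 in 1-cell embryos, 27.1 in 2-cell embryos and 53.8 in blastocysts. The second, brighter one averaged 1384 ± 412 in 8-cell embryos, against 282 ± 45.8 in oocytes, 260 ± 40.2 in 1-cell embryos, 201 ± 49.0 in 2-cell embryos and 720 ± 161 in blastocysts. Both were called above every stage, with smallest log2 differences of 2.65 and 0.91 (adjusted p = 1.05e-06 and 0.0204). The second call was lost without 8-cell replicate 2 or 4 or blastocyst replicate 2 or 4 (adjusted p up to 0.114). It was also lost under median scaling (adjusted p = 0.0654) and without the intensity trend (0.0528).

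Larp4, Zc3h12c, Gigyf2 and Ago4 encode proteins that act on messenger RNA. Larp4 binds poly(A) tails and stabilizes messages, and its 3 probe sets were all called above every stage, by at least 2.41, 1.64 and 1.40. The brightest of them had 16872, 18448, 14846 and 14495 at the 8-cell stage, against 406 to 560 in oocytes, 369 to 599 in 1-cell embryos, 5438 to 6566 in 2-cell embryos and 893 to 2571 in blastocysts. Zc3h12c, an endoribonuclease of the Regnase family, had 624, 627, 939 and 646 at the 8-cell stage and no value over 159 elsewhere. Replicate 3 was the high one of these arrays.

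Gigyf2 represses the translation of bound messages together with a cap-binding partner. It had 1324, 737, 993 and 981 at the 8-cell stage, against 20.2 to 50.4 in oocytes, 5.0 to 39.2 in 1-cell embryos, 135 to 298 in 2-cell embryos and 39.7 to 132 in blastocysts. Ago4, an Argonaute protein of the small-RNA machinery, had 431, 740, 576 and 895 at the 8-cell stage, against at most 182 at any other. Tent4b, a polymerase that adds nucleotides to RNA tails, had 9549, 11376, 8819 and 12156, against 1754 to 2222 in oocytes, 1296 to 1575 in 1-cell embryos, 1346 to 2016 in 2-cell embryos and 1782 to 3950 in blastocysts. None of the 3 genes had an 8-cell array within the range of another stage, which for Gigyf2 and Ago4 was a condition of being named.

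The remaining genes of this kind span other functions. Tbc1d9, of a family that regulates Rab GTPases, had 388, 576, 328 and 752 at the 8-cell stage and no value over 93.3 elsewhere. Dynap, a dynactin-associated membrane protein, had 400, 511, 603 and 410 and no value over 104 elsewhere. Snhg14, a long noncoding host of small nucleolar RNAs, had 567, 664, 862 and 1202 and no value over 241 elsewhere. For all 3, each 8-cell array was above each of the other 16, as the choice of genes required.

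Ypel2, of the small yippee family, was 2.25 or more above every stage by the probe set of the largest difference (adjusted p = 1.85e-06), and its other 2 probe sets were called in the same way, the dimmest not without 1-cell replicate 1 or 4 or 8-cell replicate 2 or 3 (adjusted p up to 0.0967), nor under median scaling (0.508). Fbxl20 was 2.19 or more above every stage and Gpd1l 2.04 or more (adjusted p = 7.19e-08 and 7.72e-08). The dimmest Fbxl20 probe set was 0.63 above the mean but missed the call against every stage (adjusted p = 0.639). Nipal1, a magnesium transporter, had 3705, 4533, 4929 and 5092 at the 8-cell stage, against 189 to 1758 over the other 16 arrays. Dnal1, a light chain of axonemal dynein, and Lhfpl5, a membrane protein known from sensory hair cells, completed the 15 named genes, with smallest differences of 2.19 and 2.04.

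**Figure D3:**
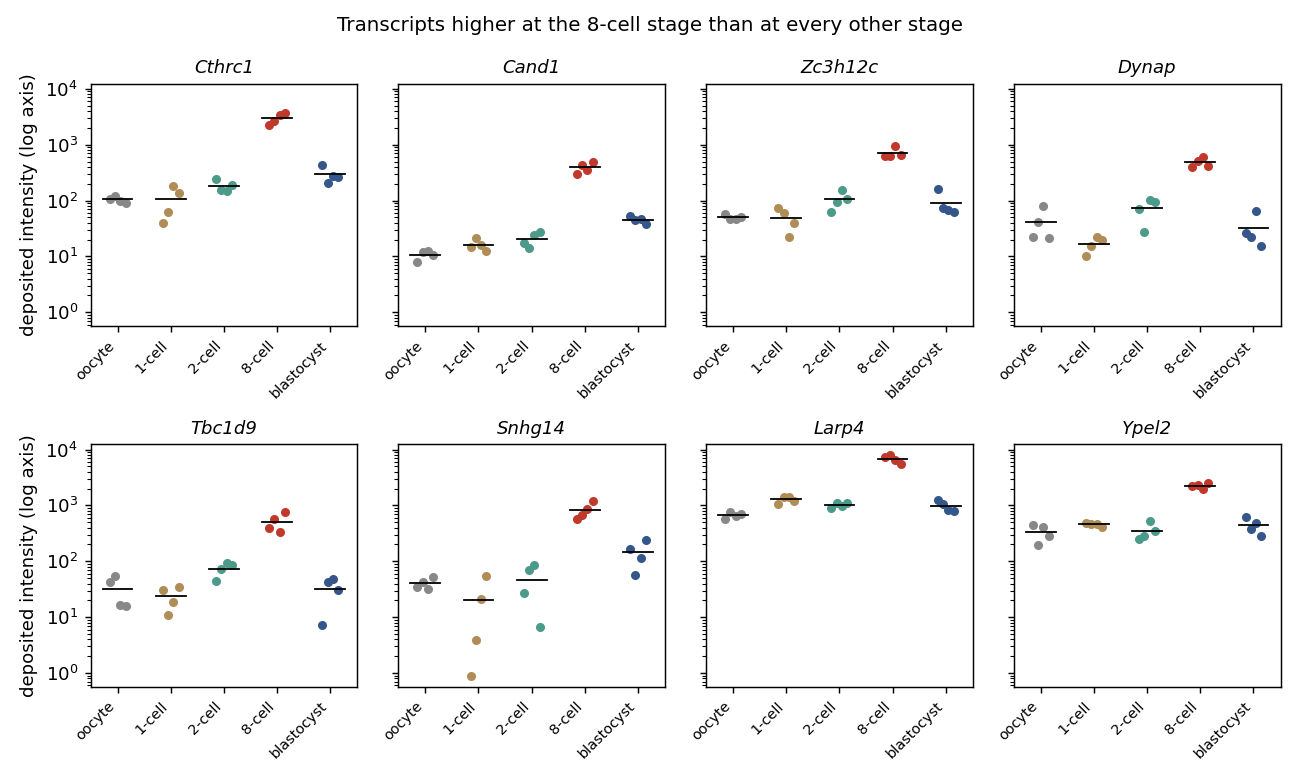
Deposited intensity (y axis, log scale) on each array (points) by stage (x axis) of 8 genes higher in 8-cell embryos (red) than at every other stage, with stage means as bars. In each panel the 4 red points lie above all others, which the choice of genes required, as for Cthrc1 with 2239 to 3657.

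The promoters of 3 of these genes, each with a single entry in the RefSeq table of GRCm38.p6, are shown as examples. They are not the first 3 in the order of the largest differences, where Cthrc1 and Zc3h12c, among others, come before Tbc1d9 and Larp4. Each sequence runs from 250 bases before to 50 bases after the annotated start. Cand1 lies at chr10:119240006-119240305 on the minus strand, Tbc1d9 at chr8:83165102-83165401 on the plus strand and Larp4 at chr15:99972530-99972829 on the plus strand. Capitals mark matches, on either strand, of the TATA box TATAAA, the box CCAAT bound by factor NF-Y, the letters GGGCGG bound by Sp family factors, the letters GGAATG bound by TEAD factors, the letters AAGGTCA bound by Esrrb and the letters GCCNNNGGC bound by Tfap2 factors.
Cand1: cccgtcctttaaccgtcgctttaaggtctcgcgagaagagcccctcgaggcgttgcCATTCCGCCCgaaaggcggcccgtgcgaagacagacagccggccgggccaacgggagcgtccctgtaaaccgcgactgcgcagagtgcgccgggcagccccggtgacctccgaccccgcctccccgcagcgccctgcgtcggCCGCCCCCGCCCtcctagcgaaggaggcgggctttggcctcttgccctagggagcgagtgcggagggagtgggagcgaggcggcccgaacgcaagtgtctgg
Tbc1d9: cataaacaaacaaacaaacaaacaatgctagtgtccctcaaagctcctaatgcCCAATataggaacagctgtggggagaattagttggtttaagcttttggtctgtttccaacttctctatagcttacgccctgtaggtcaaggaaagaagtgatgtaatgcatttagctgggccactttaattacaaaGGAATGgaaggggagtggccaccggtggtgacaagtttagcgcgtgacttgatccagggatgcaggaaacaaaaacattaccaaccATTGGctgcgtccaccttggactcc
Larp4: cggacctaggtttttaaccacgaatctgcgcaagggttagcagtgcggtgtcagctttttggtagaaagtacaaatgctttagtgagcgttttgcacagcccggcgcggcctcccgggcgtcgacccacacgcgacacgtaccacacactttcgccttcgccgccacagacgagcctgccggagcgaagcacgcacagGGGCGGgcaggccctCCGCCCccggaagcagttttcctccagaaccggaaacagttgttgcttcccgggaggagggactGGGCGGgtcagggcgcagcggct

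The Cand1 window held 3 matches of GGGCGG and 1 of GGAATG, the Tbc1d9 window 2 of CCAAT and 1 of GGAATG, and the Larp4 window 3 of GGGCGG. Of the 108 named genes above every stage, 92 had an entry, with 116 promoters in all. GGGCGG was in 62.1% of these 116, against 65.8% of the 219 promoters of genes below every stage, 53.6% of the 7545 promoters of all tested genes and 35.7% of the 32851 promoters of the whole table. GGAATG was in 12.9%, 12.8%, 12.9% and 14.7% of the same 4 sets, AAGGTCA in 2.59%, 3.20%, 3.91% and 4.72%, and GCCNNNGGC in 22.4%, 27.4%, 22.1% and 16.6%. CCAAT was in 37.9%, 40.2%, 37.0% and 37.4%, and TATAAA in 7.76%, 6.85%, 8.44% and 13.6%. A match here is a description of letters and not of binding, and none of these shares was tested.

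Transcripts lower at the 8-cell stage than everywhere else were led, among named probe sets other than the x_at type, by Eml4, a microtubule-associated protein. It had 51.6, 41.2, 16.8 and 18.8 on the 8-cell arrays. It had 1581, 1246, 1376 and 1125 in oocytes, 1337, 1968, 1358 and 1670 in 1-cell embryos, 1772, 1343, 965 and 726 in 2-cell embryos and 614, 745, 367 and 409 in blastocysts. All 8-cell values lay below all others, and the smallest log2 difference, against blastocysts, was -3.41 (limma adjusted p = 2.52e-08 for the test against every stage). A second Eml4 probe set differed from the mean by -1.27 (adjusted p = 3.4e-06) but was not below every stage (adjusted p = 0.314). The 15 genes named in this group were taken only from those without overlap, so their lack of overlap follows from the choice.

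Gmds, the dehydratase that starts the synthesis of GDP-fucose, had 9.6, 14.9, 10.6 and 14.7 at the 8-cell stage. The other stages had 1643 to 2042 in oocytes, 1338 to 2083 in 1-cell embryos, 182 to 1006 in 2-cell embryos and 160 to 259 in blastocysts, so the groups did not overlap. Gins2, a subunit of the GINS complex of the replicative helicase, had 44.3, 63.7, 80.7 and 80.3 at the 8-cell stage. In oocytes it had 2190 to 2666, in 1-cell embryos 133 to 1232, in 2-cell embryos 933 to 1360 and in blastocysts 1690 to 2286. Its log2 differences from these stages were -4.78, -2.72, -3.68 and -4.57.

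Ooep, a member of the subcortical maternal complex of the oocyte, had 443, 339, 324 and 305 at the 8-cell stage. Oocytes had 18780 to 24621, 1-cell embryos 12386 to 18892, 2-cell embryos 1877 to 3928 and blastocysts 1433 to 2580. The 8-cell embryo was thus the lowest point, by 2.49 or more on the log2 scale (adjusted p = 1.17e-07), and blastocyst arrays did not overlap with it. Magi3, a scaffold protein of tight junctions, had 23.7, 21.3, 28.4 and 21.6 at the 8-cell stage and between 192 and 896 at the others.

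Opa1, Timm21 and Agps, of mitochondria and lipid synthesis, were in this group too. Opa1, which fuses the inner mitochondrial membrane, had 265, 198, 250 and 144 at the 8-cell stage, against 757 to 1874 over all other arrays. Timm21, of the import machinery of the inner membrane, had 27.6, 117, 120 and 11.3, against 415 to 2411. Agps, which makes the ether bond of plasmalogens, had 270, 98.8, 524 and 100, against 926 to 2566, but a second Agps probe set differed from the mean of the other stages by -0.37 and was not called (adjusted p = 0.192).

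Shroom4, an actin-binding protein, had 220, 57.7, 221 and 41.3 at the 8-cell stage and no value under 475 elsewhere. Garem1, an adaptor of growth factor receptors, had 69.4, 90.1, 133 and 12.5 and no value under 629 elsewhere, while its second probe set was not called (0.28, adjusted p = 0.559). Tmem107, of the ciliary transition zone, had 253, 181, 241 and 156 and no value under 576 elsewhere. Dpy19l1, Nt5dc1, Atxn1 and Pcyox1 were below every stage by at least 2.39, 2.30, 2.23 and 2.15, with adjusted p of 0.000386 or less.

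**Figure D4:**
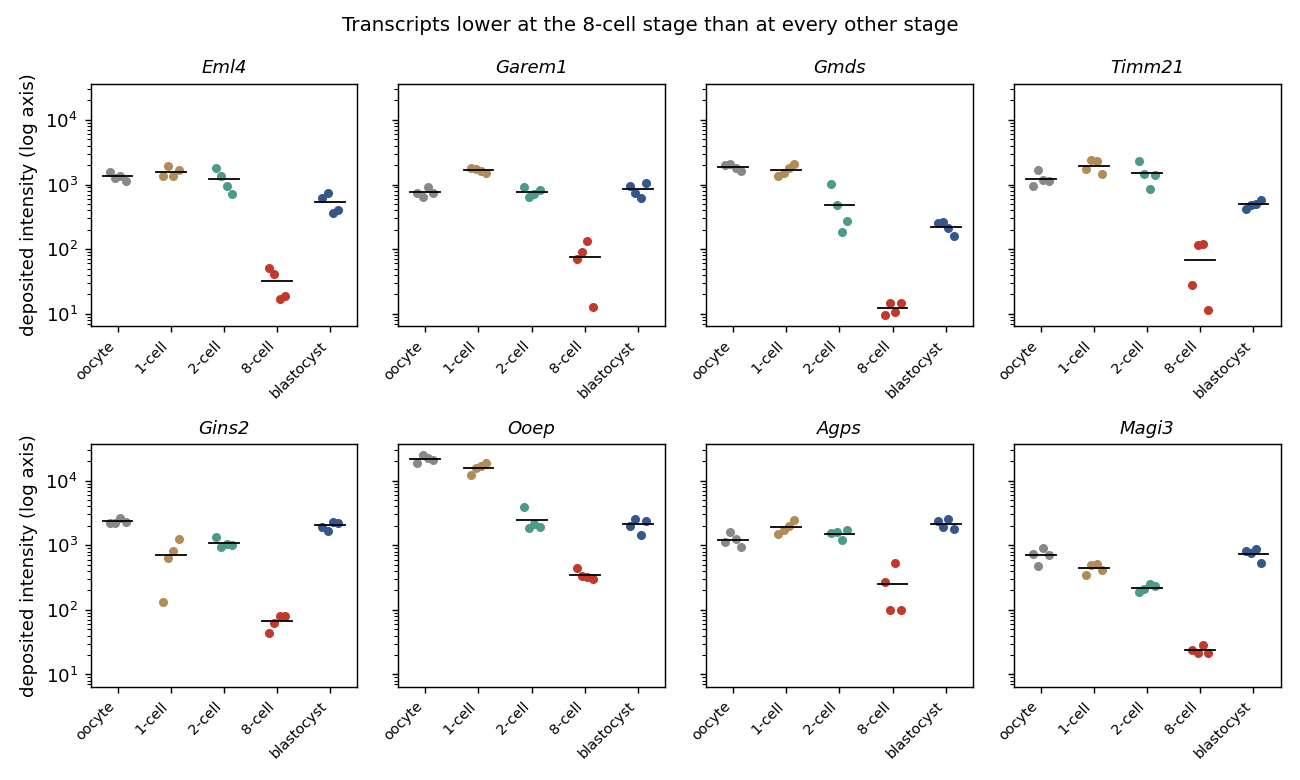
Deposited intensity (y axis, log scale) on each array (points) by stage (x axis) of 8 genes lower in 8-cell embryos (red) than at every other stage, with stage means as bars. In each panel the 4 red points lie below all others, which the choice of genes required, as for Gmds with 9.6 to 14.9.

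The agreement of probe sets was examined for these genes. Of the genes above every stage, 61 had more than 1 tested probe set: in 16 more than 1 met the criterion, in 48 another was called in the same direction against the mean of the other stages, and in 5 another was called in the opposite direction. For the genes below every stage the same numbers were 98, 14, 59 and 7. The third probe sets of Snhg14 and Tmem107 were not called against the mean (0.94 and -0.10).

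Relative to the mean of the other stages alone, the largest rises of genes not among the 15 above, besides Obox6 and Ppm1a, were those of Vnn1, Tmem64, Gk5 and Rps3. A second Gigyf2 probe set, at 2133 ± 78.1 in 8-cell embryos, against 4.72 ± 0.41 in oocytes, 8.40 ± 3.51 in 1-cell embryos, 1173 ± 242 in 2-cell embryos and 220 ± 49.2 in blastocysts, rose by 4.19, more than Rps3 with 4.11. Vnn1, a pantetheinase, had 4306, 5170, 6059 and 3981 at the 8-cell stage and 1463 to 2819 in blastocysts, while no array of the earlier stages exceeded 78.5. It was 5.63 ± 0.27 above the mean (limma adjusted p = 5.94e-14) and just missed the call against every stage (adjusted p = 0.0509). Tmem64, a membrane protein, had 4013, 4998, 3742 and 3189, against 918 to 3655 in blastocysts with an overlap, and at most 98.8 before. Gk5, of the glycerol kinase family, had 1338, 1193, 2137 and 1831, against 458 to 828 in blastocysts and at most 138 before. Tmem64 and Gk5 missed the call against every stage (adjusted p = 0.175 and 0.109).

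The largest falls were of transcripts that were high in oocytes and remained low in blastocysts: Oosp2, Trim61, Nlrp4f, Ccdc69, Klhl8 and Zc3h6, at -5.04 to -4.55. A second Zc3h6 probe set was not called (-0.65, limma adjusted p = 0.0949). Nlrp4f, of the Nlrp family expressed in oocytes, had 153, 154, 92.4 and 153 at the 8-cell stage. It had 8883 to 14820 in oocytes, 14008 to 17982 in 1-cell embryos, 11154 to 15258 in 2-cell embryos and 111 to 676 in blastocysts. The 8-cell values lay below the 3 earlier stages and overlapped with blastocysts. Klhl8, an adaptor of the cullin 3 ubiquitin ligase, had 32.6, 20.9, 19.7 and 34.4, against 22.7 to 57.6 in blastocysts and at least 2029 before.

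Genes grouped by function were then counted, with 1 probe set per gene, against the mean of the other stages. Over all 7490 named genes 19.2% were higher, 21.0% were lower and the median log2 difference was 0.06, which is the level against which each list is to be read. Under median scaling the median over all tested probe sets moved from 0.13 to -0.04. List medians given for that scaling are to be set against this lower level. For the criterion of every stage the same shares were 1.16% above and 2.18% below. The array measures only part of each list, so the counts hold for the measured members.

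Cell junction and adhesion genes had 6 of 16 measured members higher, 2 lower and a median of 0.31. Cxadr, a junctional adhesion receptor, had 438, 638, 811 and 759 at the 8-cell stage, against at most 76.9 in oocytes, 36.6 in 1-cell embryos and 171 in 2-cell embryos, and 863 to 1902 in blastocysts. Ocln, the tight junction protein occludin, had 406, 512, 371 and 466, against 29.9 to 71.5, 27.4 to 43.5 and 67.6 to 181 in the same 3 stages and 332 to 528 in blastocysts. For both the 8-cell arrays lay above all earlier arrays; those of Ocln overlapped with blastocysts, and those of Cxadr lay below them. Marveld3, another tight junction protein, rose by 1.12 (limma adjusted p = 0.000935), but a second probe set was not called (-0.21). None of the 16 was above every stage, and Magi3 was below every stage.

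None of 15 measured genes of apical polarity and the cortical cytoskeleton was higher, 5 were lower, and the median was -0.14. Anln, the actin-binding protein anillin, averaged 136 ± 39.5 at the 8-cell stage, against 567 ± 66.7 in oocytes, 998 ± 164 in 1-cell embryos, 236 ± 97.0 in 2-cell embryos and 286 ± 97.0 in blastocysts. Dlg1, a scaffold of the basolateral Scribble complex, averaged 720 ± 179, against 1225 ± 159, 1752 ± 325, 1187 ± 171 and 2176 ± 353 in the same stages, and was below every one (adjusted p = 0.0282), a call lost without oocyte replicate 3, 2-cell replicate 2, 3 or 4 or 8-cell replicate 1 or 2 (adjusted p up to 0.164) and under quantile normalization (0.619). Cdc42bpb, a kinase bound by Cdc42, fell by 1.60 (adjusted p = 0.00125). Cdc42 itself averaged 2374 ± 141, against 1349 ± 201, 1599 ± 519, 997 ± 381 and 6036 ± 1291, and was not called against the mean (0.36, adjusted p = 0.154).

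Of 16 measured genes of the Hippo pathway and trophectoderm, 5 were higher and 3 lower, with a median of 0.35. The lower ones were Tmprss2, Vgll3 and Slc9a3, at -1.32, -0.73 and -0.68. Tmprss2 and Vgll3 averaged 136.5 and 73.5 at the 8-cell stage, against 9176 and 1133 in blastocysts. Stk4, a core kinase of the pathway also known as Mst1, had 1663, 2625, 2352 and 2122 at the 8-cell stage. The other stages had 59.3 to 148 in oocytes, 111 to 205 in 1-cell embryos, 159 to 467 in 2-cell embryos and 572 to 1274 in blastocysts, without overlap. It was above every stage by 1.26 or more (limma adjusted p = 0.0141), a call lost without 8-cell replicate 2 or 3 or blastocyst replicate 3 or 4 (adjusted p up to 0.0783). A second, dimmer Stk4 probe set was 2.01 above the mean but missed the call against every stage (adjusted p = 0.285). Sp6, a transcription factor of the Sp family, was above every stage as well (smallest difference 0.69, adjusted p = 0.0300). That call was lost without any single 8-cell array, 2-cell replicate 1, 2 or 3 or blastocyst replicate 4 (adjusted p up to 0.107). It was also lost under median scaling (0.111), with the replicate block (0.0573) and without the intensity trend (0.0556). Lrp2, an endocytic receptor of the trophectoderm, was 0.80 above the mean. Klf5, a factor of trophectoderm and inner cell mass, averaged 86.7 ± 24.9 at the 8-cell stage and between 53.0 and 83.4 at the others and was not called (adjusted p = 0.538).

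Pluripotency and inner cell mass genes had 8 of 22 members higher, 2 lower and a median of 0.36. The list also holds genes of primitive endoderm. Of these, Gata6 had the largest rise of the list, 2.28, and Dab2 and Sparc rose by 1.12 and 0.72, whereas Flrt3 was lower, at -1.75. Esrrb, an orphan nuclear receptor, had 618, 570, 735 and 706 at the 8-cell stage, against 283 to 324 in oocytes, 299 to 334 in 1-cell embryos, 244 to 406 in 2-cell embryos and 293 to 468 in blastocysts. It was the one member above every stage (smallest difference 0.74, limma adjusted p = 0.0209), a call lost without 8-cell replicate 3 or 4 or blastocyst replicate 3 or 4 (adjusted p up to 0.104). The Esrrb call was also lost under median scaling (adjusted p = 0.0666) and without the intensity trend (0.0528). Tbx3, a T-box factor, had 753, 360, 592 and 403, against at most 148 in the 3 earlier stages and 164 to 388 in blastocysts. Sall1, a zinc-finger factor, averaged 273 ± 34.6, against 28.5 ± 6.89, 22.3 ± 9.29, 49.1 ± 28.3 and 284 ± 57.1 in oocytes, 1-cell embryos, 2-cell embryos and blastocysts. Tbx3 and Sall1 rose against the mean, by 1.97 and 1.88, as did the corepressor Trim28, by 1.09.

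Klf17, a zinc-finger factor, had 2281, 2234, 1977 and 2237 at the 8-cell stage, between the high values of earlier stages (4294 to 5795 in oocytes, 4550 to 6798 in 1-cell embryos, 7514 to 12078 in 2-cell embryos) and the low ones of blastocysts (72.9 to 152). It did not pass against the mean (-0.12, adjusted p = 0.601), and without the 2-cell arrays its difference was 0.59. A second Klf17 probe set was lower than the mean (-0.74, adjusted p = 0.00754). Prdm14, a regulator of pluripotency, was 0.91 above the mean (adjusted p = 0.0135), a call lost without 8-cell replicate 1 or 4 (adjusted p = 0.0572 and 0.0617). That call was also lost under median scaling (0.0503) and without the 1-cell arrays (0.0883). Il6st, the shared receptor chain of the LIF family, was below every stage, by 1.83 or more on the log2 scale.

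Oocyte and maternal-effect genes had 37 of 39 measured members lower, with a median of -3.43. The 39 summed to between 10863 and 12273 per 8-cell array, against 317468 to 383386 in oocytes, 322483 to 376327 in 1-cell embryos, 99315 to 184098 in 2-cell embryos and 24911 to 29473 in blastocysts. Without Khdc3, of the subcortical maternal complex, the other 38 summed to between 7240 and 8772 at the 8-cell stage and between 6126 and 7516 in blastocysts, so the order of these stages rested on that gene. Against blastocysts alone 14 members were higher and 4 lower. D6Ertd527e and the oocyte kinase Wee2 fell by 3.43 and 4.12 (limma adjusted p = 1.54e-15 and 3.51e-15). The single member that rose was Khdc3, at 3707 ± 500, against 2305 ± 358, 575 ± 180, 396 ± 196 and 20820 ± 2274 in oocytes, 1-cell embryos, 2-cell embryos and blastocysts (adjusted p = 8.33e-05).

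The list of cleavage-stage activation genes had 5 of 13 members higher and 4 lower, with a median of -0.19. It also holds genes that were bright in oocytes: of those called lower, Obox5, of the Obox homeobox family, averaged 293 ± 46.4 in 8-cell embryos and 14740 ± 1912 in oocytes, and Patl2 averaged 256 ± 23.4 in 8-cell embryos and 2282 ± 302 in oocytes (SD, n = 4 each). The median of the list was 0.09 without 8-cell replicate 2. Ubtfl1, an embryonic relative of a ribosomal gene factor, averaged 1376 ± 240, against 27.1 ± 11.8, 30.9 ± 28.2, 4557 ± 588 and 213 ± 117 in the same stages, so it was highest in 2-cell embryos. Rbm25, a splicing regulator, rose by 1.79 (limma adjusted p = 1.01e-06). Patl2, a translational repressor of oocytes, was below every stage (adjusted p = 0.00207).

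In ribosome biogenesis 30 of 52 members were higher, 3 lower and the median was 0.61, and 4 members were above every stage. Wdr3, of the complex that processes the small subunit, had 6468, 7038, 7374 and 8158 at the 8-cell stage, against 486 to 635 in oocytes, 162 to 242 in 1-cell embryos, 2061 to 3180 in 2-cell embryos and 2963 to 5950 in blastocysts. Its 8-cell arrays lay above all others (smallest difference 0.81, limma adjusted p = 0.0208), but the call was lost without 8-cell replicate 2, 3 or 4 or blastocyst replicate 3 or 4 (adjusted p up to 0.109). The Wdr3 call was also lost under median scaling (adjusted p = 0.0873) and without the intensity trend (0.0687). Wdr46, Gnl3l and Tbl3 were the other members above every stage, by at least 1.36, 1.03 and 1.26, the call of Gnl3l being lost without 8-cell replicate 4 (adjusted p = 0.0717), and Krr1, like Tsr1 a maturation factor of the small subunit, rose by 1.73.

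Both measured cytosolic ribosomal proteins, Rpl22 and Rps3, rose. Rps3, of the small subunit, had 1904, 1847, 1660 and 1879 at the 8-cell stage, against at most 44.3 in oocytes, 16.6 in 1-cell embryos and 147 in 2-cell embryos, and 695 to 1051 in blastocysts. It was above every stage (limma adjusted p = 0.0309). That call was lost without any single 8-cell array or blastocyst replicate 2, 3 or 4 (adjusted p up to 0.142). It was also lost with a pseudocount of 5 (0.322), median scaling (0.0941), array weights (0.0752) and the replicate block (0.0529). A second, dim Rps3 probe set was lower than the mean by 0.97, with 85.0 ± 64.1 at the 8-cell stage. Of 20 translation factors and tRNA synthetases 9 were higher and 2 lower, with a median of 0.26, and Eif5 and Eif2b3, a subunit of the exchange factor of initiation factor eIF2, were above every stage, Eif2b3 not without 8-cell replicate 4 (adjusted p = 0.0608). Mars1, the methionyl-tRNA synthetase, rose by 1.80 against the mean. At 1105 ± 204 it was nevertheless below blastocysts, with 3700 ± 628 (log2 difference -1.73, limma adjusted p = 3.76e-05).

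Proteasome genes had 7 of 10 members higher, none lower and a median of 1.14. The catalytic subunit Psmb5 averaged 6150 ± 820 at the 8-cell stage, against 1317 ± 120 in oocytes, 319 ± 65.1 in 1-cell embryos, 2187 ± 503 in 2-cell embryos and 10350 ± 1015 in blastocysts. The ring subunits Psma1 and Psma3 rose by 1.30 and 2.03 (limma adjusted p = 1.64e-08 and 3.56e-07). No proteasome member was above every stage. Among 34 chaperones 8 were higher and 3 lower, with a median of 0.27. Dnaja1, a partner of Hsp70 chaperones, was above every stage at 6627 ± 471, against 2146 ± 285, 1149 ± 167, 715 ± 130 and 3129 ± 533 in the same stages (adjusted p = 0.000221). Pfdn6, a subunit of prefoldin, and Dnajc17 rose by 1.86 and 2.57.

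In mitochondria, 10 of 23 ribosomal proteins were higher and 1 lower, with a median of 0.45, led by Mrps10, Mrpl43 and Mrpl27 at 2.66, 2.09 and 1.69; a second Mrps10 probe set was not called (0.50). The oxidative phosphorylation list had 5 of 20 higher, 4 lower and a median of 0.24, shares close to those of all genes. Cox11 and Sco1, which deliver copper to cytochrome oxidase, rose by 0.80 and 0.70 (limma adjusted p = 0.000311 and 0.00173). Uqcrh, the hinge protein of the cytochrome bc1 complex, rose by 0.64 (adjusted p = 0.00742), a call lost without 8-cell replicate 2 (adjusted p = 0.0610). The Uqcrh call was also lost under median scaling (limma adjusted p = 0.0819). Without the 1-cell or the 2-cell arrays it was lost as well (adjusted p = 0.3315 and 0.3355). In the comparison with blastocysts, no member of either list was higher. There, 6 oxidative phosphorylation genes and 1 mitochondrial ribosomal protein were lower. Cox11, Uqcrh and Mrpl27 were among these, at -0.99, -1.15 and -0.79 (limma adjusted p = 0.0012, 0.000816 and 0.021).

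Of 22 genes of glucose and pyruvate metabolism 7 were higher and 4 lower, with a median of 0.27. Pdp2, the phosphatase that activates pyruvate dehydrogenase, averaged 1635 ± 237 at the 8-cell stage, against 168 ± 83.3 in oocytes, 136 ± 79.1 in 1-cell embryos, 677 ± 158 in 2-cell embryos and 948 ± 72.1 in blastocysts, a rise of 2.20 (limma adjusted p = 5.34e-08). Cholesterol and lipid genes had 7 of 20 higher and 5 lower, with a median of 0.20. Chka, a choline kinase, rose by 2.41 and was above every stage (adjusted p = 0.0202), although its lowest 8-cell array, 1562, was under the highest blastocyst array, 1603. Its call was lost without 8-cell replicate 1, 2 or 3 or blastocyst replicate 1 or 3 (adjusted p up to 0.109) and without the intensity trend (0.0525). The acyltransferase Agpat5 and the elongase Elovl6 rose by 1.61 and 1.58. Insig1, which retains the sterol sensor in the endoplasmic reticulum, was below every stage (adjusted p = 0.00507).

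Splicing genes had 26 of 59 members higher, 5 lower and a median of 0.51. Syncrip, an RNA-binding protein, had 2084, 2185, 2207 and 2066 at the 8-cell stage, against at most 100 before and 1042 to 1794 in blastocysts. Snrpb, a core protein of spliceosomal particles, had 7228, 6937, 7290 and 6421, against 129 to 501 in oocytes, 167 to 200 in 1-cell embryos, 884 to 1675 in 2-cell embryos and 4438 to 8901 in blastocysts. Syncrip lay above all other arrays but missed the call against every stage, and Snrpb overlapped with blastocysts. Ppil1, a cyclophilin of the spliceosome, rose by 2.20 (limma adjusted p = 6.84e-08). Lsm14a, a decapping-associated protein, and Ddx46, a spliceosomal helicase, were below every stage (adjusted p = 0.000203 and 0.0335), Ddx46 not without any single 8-cell array, oocyte replicate 1, 3 or 4 or 1-cell replicate 1, 3 or 4 (adjusted p up to 0.174). Ddx46 also lost the call with a pseudocount of 80 (0.05255), without the filter (0.0600) and without the intensity trend (0.0774).

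Among 44 genes of deadenylation and decay, 16 were higher and 8 lower, with a median of 0.17 that became -0.03 when arrays were scaled to their medians. The list held opposite extremes: Tent4b and Ago4 were above every stage, and Patl2, Tnrc6b and Tent4a, the close relative of Tent4b, were below every stage. Tent4a averaged 194 ± 34.4 at the 8-cell stage, against 3396 ± 431 in oocytes, 6304 ± 529 in 1-cell embryos, 3467 ± 461 in 2-cell embryos and 339 ± 72.5 in blastocysts (limma adjusted p = 0.0119). That call was lost without 8-cell replicate 1 (0.0752) or blastocyst replicate 1 (0.0579) and without the intensity trend (0.0533). A second Tent4a probe set was not called against the mean (adjusted p = 0.254). Ago2, the slicing Argonaute, rose by 2.90 against the mean. Tnrc6b, a partner of Argonautes, averaged 115 ± 21.7, against 462 ± 93.3, 660 ± 30.0, 611 ± 74.0 and 236 ± 41.8 in the same stages.

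In nuclear transport 10 of 28 genes were higher and 7 lower, with a median of 0.12 (-0.07 under median scaling). Xpot, the exporter of tRNA, had 6084, 5782, 7492 and 9442 at the 8-cell stage, against 43.0 to 193 in oocytes, 14.3 to 65.3 in 1-cell embryos, 1238 to 1456 in 2-cell embryos and 4216 to 5197 in blastocysts. Its arrays did not overlap with any other, but it missed the call against every stage (limma adjusted p = 0.629). Ipo7, an importin, and Nup205, a nucleoporin, rose by 2.05 and 1.30 (limma adjusted p = 8.60e-06 and 2.44e-07).

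Of 85 chromatin genes 30 were higher and 17 lower, with a median of 0.20 (0.00 under median scaling). Pcgf5, a Polycomb subunit, averaged 5031 ± 655 at the 8-cell stage, against 541 ± 119 in oocytes, 298 ± 93.6 in 1-cell embryos, 5330 ± 1115 in 2-cell embryos and 2159 ± 566 in blastocysts. Chd1, a remodeller of active chromatin, and Brd3, a reader of acetylated histones, rose by 2.38 and 1.72. Hdac5, a histone deacetylase, was above every stage (limma adjusted p = 0.00751), and Suv39h2, Nsd1 and Nsd2, all histone methyltransferases, were below every stage (adjusted p = 0.000111, 0.0137 and 0.000498), Nsd1 not without 8-cell replicate 1 (adjusted p = 0.0818).

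The DNA methylation genes were divided. Dnmt1, the maintenance methyltransferase, had 73.0, 296, 243 and 101 at the 8-cell stage, against 7835 to 10181 in oocytes, 2402 to 2788 in 1-cell embryos, 240 to 875 in 2-cell embryos and 151 to 425 in blastocysts, with overlap in the last 2. Its difference from the mean was -3.01 ± 0.28 (log2 ± SE). Tet1 and Tet2, which oxidize methylcytosine, averaged 735 ± 207 and 636 ± 130, against 57.1 ± 33.8 and 121 ± 44.3 in oocytes, 71.5 ± 27.6 and 110 ± 70.2 in 1-cell embryos, 291 ± 61.2 and 171 ± 47.5 in 2-cell embryos and 1997 ± 386 and 1398 ± 108 in blastocysts. Both rose against the mean, by 1.56 and 1.36 (limma adjusted p = 2.33e-06 and 0.000151). Tet3 was not called (-0.68, adjusted p = 0.139).

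In DNA replication 11 of 34 were higher and 7 lower, with a median of 0.15 (-0.04 under median scaling). Ccne1, the cyclin E that drives entry into S phase, averaged 4793 ± 413 at the 8-cell stage, against 268 ± 60.3 in oocytes, 320 ± 75.9 in 1-cell embryos, 4524 ± 843 in 2-cell embryos and 2004 ± 435 in blastocysts. Rnaseh2b, of the enzyme that removes ribonucleotides from DNA, and Slbp, the stem-loop binding protein of histone messages, rose by 2.71 and 1.42. In mitosis 11 of 52 were higher and 9 lower, with a median of 0.06 (-0.12 under median scaling), shares close to those of all genes. Cdc27, a subunit of the anaphase-promoting complex like Anapc10, and Haus2, of the augmin complex, rose by 1.11 and 1.46, but the other 2 Cdc27 probe sets were not called (0.09 and 0.33, adjusted p = 0.662 and 0.168), while Sgo1, the protector of centromeric cohesion, was below every stage (limma adjusted p = 0.00256).

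**Figure D5:**
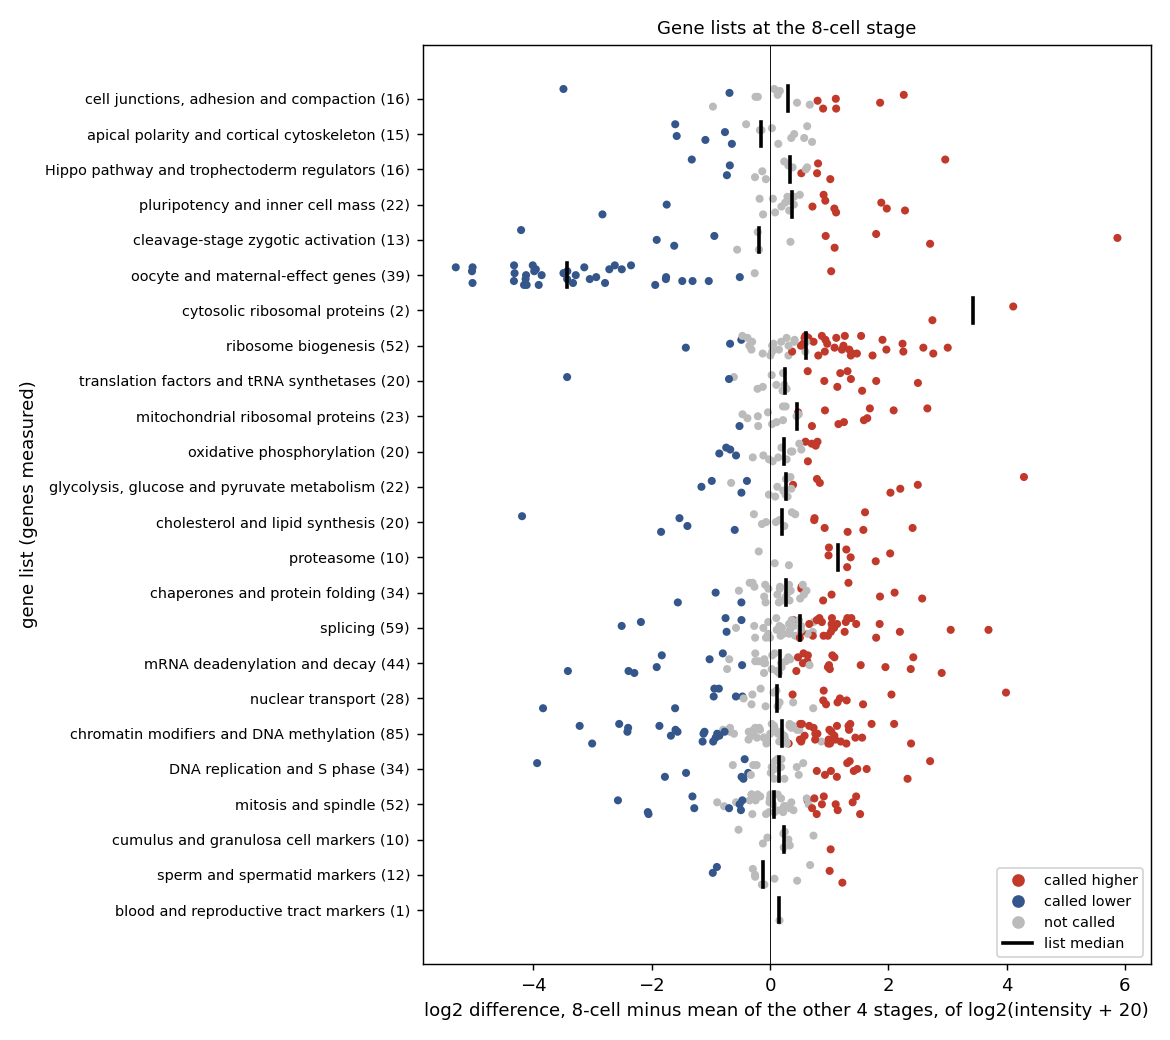
Log2 difference of each measured gene (points) between 8-cell embryos and the mean of the other 4 stages (x axis) by gene list (y axis, with the number measured), coloured by call, with list medians as bars. The maternal list lies far to the left with a median of -3.43, and the proteasome list lies to the right with 1.14.

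Markers of other cells that a collection could hold were also summed. The 10 measured cumulus and granulosa cell markers summed to 2678 to 3015 per 8-cell array, against 2187 to 2582 in oocytes, 1874 to 2268 in 1-cell embryos, 3738 to 4400 in 2-cell embryos and 1682 to 2255 in blastocysts, so the 8-cell sums lay between those of 2-cell embryos and those of the other stages. One marker was higher than the mean of the other stages, Amhr2, a hormone receptor, at 768 ± 97.1, against 196 ± 23.3, 167 ± 37.6, 2053 ± 284 and 250 ± 24.9 in the same stages. The 12 sperm markers summed to 1707 to 2389, against 1725 to 2227, 1566 to 1931, 1701 to 2167 and 1232 to 1756.

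The median of the sperm list was -0.12 and was 0.10 without 8-cell replicate 4. In the sperm list Catsper2 and Odf2 were higher than the mean (1.22 and 1.01) and Zpbp and Spata18 lower (-0.90 and -0.97). The calls of Odf2 and Zpbp were lost without 8-cell replicate 1 and 2 (limma adjusted p = 0.0684 and 0.0595). Odf2 also lost its call under median scaling (0.0669). Without the 1-cell arrays Odf2 and Spata18 were not called (0.159 and 0.0708). The single blood marker measured, Laptm5, averaged 147 ± 23.6 at the 8-cell stage and 62.8 to 268 at the others and was not called. No measured marker was listed at 0, and the part of these cells in the results was not tested.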

How the data were processed

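Expression was measured on 20 arrays of 5 stages, 4 each, grouped by their titles. The deposited values are linear intensities, 1 per probe set, which the authors had scaled to a common trimmed mean, as seen from the values; scanner software and probe summarization were not stated in the labels. Gene names came from the annotation of the platform (14661 of 22511 have 1 symbol, and 14486 of these were found in the GRCm38.p6 gene table). Values were transformed to log2(value + 20), probe sets reaching the median of the table, 82.6, on 4 or more arrays were kept for testing, and limma 3.58.1 under R 4.3.3 fitted a mean per stage to the 20 arrays with an intensity trend and 15 residual degrees of freedom. A probe set dim at the other stages could pass this filter through its 4 8-cell arrays alone, as the dimmer Cand1 probe set did. Without the filter 167 probe sets were above every stage, 144 of them among the 153 called with it. The contrasts were 8-cell minus the mean of the other stages, each weighted equally, and minus each stage. For the criterion of every stage the largest of 4 one-sided p-values was used. P-values were Benjamini-Hochberg adjusted within each contrast over 15234 probe sets and called under 0.05. Differences on this log2 scale understate the change of dim probe sets. Scripts were tested on simulated data. Members and gene lists were chosen with earlier results of these data known.

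Genes were named by a rule: the 20 brightest at the 8-cell stage, the 15 furthest above and 15 furthest below every stage without overlap, the 6 largest rises and falls against the mean, up to 3 called per list, and a fixed set of developmental genes; probe sets of the x_at type, clone names and sets with several symbols were left out, except that lists and the fixed set could use x_at. The other members named as above or below every stage, and second probe sets, were singled out after their values were seen. So were Khdc3, Obox5, Homer1, Elovl7, Tmprss2, Vgll3, Slc9a3, Gata6, Dab2, Sparc and Flrt3. In lists each gene was represented by its brightest probe set over the stages. The alternatives were other pseudocounts, filters, scalings, weights and moderation, no x_at or s_at sets, the replicate number as a block, and leaving out a stage or an array.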

Additional observations from a re-analysis of the deposited data

Results flagged for a closer look

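Dixon's ratio was computed for the 4 arrays of each stage for every named probe set, and a single array stood apart from the other 3 of its stage in 38 of 630 groups, or 6.03 per 100, where chance alone flags about 1 in 20. Of these, 10 were at the 8-cell stage, 5 of them at replicate 3. The 8-cell arrays that stood apart on the high side were replicate 1 for Obox6 (21768) and Lrp2 (592), replicate 2 for Catsper2 (536), replicate 3 for Zc3h12c (939) and Cox11 (1068), and replicate 4 for Ago2 (2779). On the low side they were replicate 3 for Nlrp4f (92.4), Amhr2 (624) and Klf17 (1977), and replicate 4 for Chka (1562).

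Among oocyte arrays, the intensity stood apart at 649 for Pcyox1, 52.3 for Vnn1, 3.2 for Tmem64, 1463 for Dlg1 and 181 for Catsper2. At the 1-cell stage it did so at 284 for Nipal1, 658 for Nt5dc1, 2353 for Zc3h6, 36.6 for Cxadr, 270 for Lrp2, 50.1 for Ipo7, 27.3 for Rnaseh2b and 690 for Tet3. At the 2-cell stage the values were 3928 for Ooep, 78.5 for Vnn1, 91.1 for Sall1, 26.9 for Tbx3, 2447 for D6Ertd527e, 3180 for Wdr3, 379 for Uqcrh and 211 for Rnaseh2b. Among blastocyst arrays they were 7845 for Dnaja2, 159 for Zc3h12c, 57.6 for Klhl8, 1516 for Cox11, 89.0 for Spata18, 152 for Klf17 and 171 for Tet3.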

How the results depend on the processing

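Every count of calls kept within 1.5 times its value under every alternative run, with 3 exceptions. Probe sets higher than every other stage numbered 153, but 248 with a pseudocount of 80 and 338 without the 2-cell arrays, and those lower than every other stage numbered 218, but 332 without the 2-cell arrays; the last 2 settings compare with fewer stages. All 153 were among the 248 and among the 338. Under median scaling 108 were called, and without 8-cell replicate 2 107, all of them among the 153. Klf17 turned from -0.12 to 0.59 (limma adjusted p = 0.00545) without the 2-cell arrays, where it was highest. Leaving out single arrays gave 2561 to 3099 probe sets higher and 2172 to 2432 lower than the mean of the other stages, 107 to 157 above every stage and 182 to 220 below every stage. The replicate numbers did not pair the arrays (8-cell arrays correlated with same-numbered arrays of other stages by -0.047 to 0.041 in their deviations), and with the replicate number as a block 3012 probe sets were higher, 2380 lower and 153 above every stage, of which 145 were shared. Of the calls of named genes against the mean of the other stages, 21 were lost and 8 gained under single alternatives, among Cdca8, Dnaja2, Kdm2b, Bms1, Uqcrh, Odf2, Zpbp, Spata18, Prdm14, Cdc42 and Tet3. Of 74 named or listed probe sets called above or below every stage, 56 kept that call under every alternative in which they were tested, the 30 furthest from the other stages included, and 18 lost it under at least 1 (Cdca8, Eif2b3, Gnl3l, Homer1, Nsd1, Gigyf2, Tent4a, Stk4, Ypel2, Cand1, Chka, Esrrb, Wdr3, Dlg1, Rps3, Sp6 and Ddx46, with 2 probe sets for Homer1). The list medians of decay, nuclear transport, replication, mitosis and blood genes turned negative under median scaling (-0.03, -0.07, -0.04, -0.12 and -0.04), and those of zygotic activation and sperm genes turned positive (0.19 and 0.21) with a filter at the 75th percentile, where those of nuclear transport and mitosis were -0.16 and -0.01. The median over all tested probe sets itself moved from 0.13 to -0.04 under median scaling, so the level of reference shifted too. The zygotic activation median was also positive without 8-cell replicate 2 (0.09) and without the 2-cell arrays (0.12), and the sperm median without 8-cell replicate 4 (0.10), 8-cell replicate 1 (0.0057) and the 2-cell arrays (0.07). The table holds no detection calls, so the lowest values have no order, and precision is limited by 4 arrays a stage.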

Other observations

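Some genes had probe sets that disagreed. Homer1, a scaffold of synapses, was above every stage by one probe set, with 549 ± 63.7 at the 8-cell stage, against 36.6 ± 26.2 in oocytes, 36.8 ± 25.4 in 1-cell embryos, 46.6 ± 21.4 in 2-cell embryos and 203 ± 74.4 in blastocysts (limma adjusted p = 0.0338). That call was lost without any single 8-cell array or blastocyst replicate 2, 3 or 4 (adjusted p up to 0.136). It was also lost with a pseudocount of 5 (0.188), median scaling (0.0833), array weights (0.0751) and the replicate block (0.0544). By a second probe set Homer1 was below every stage, with 94.3 ± 44.2, against 248 ± 79.3, 409 ± 110, 435 ± 47.0 and 364 ± 135 (adjusted p = 0.0108), a call lost without oocyte replicate 3 (adjusted p = 0.0538). The remaining probe set was not called (adjusted p = 0.295).

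Elovl7, an elongase of fatty acids, was low at the 8-cell stage by an x_at probe set, with 47.3 ± 15.7 at the 8-cell stage, against 1313 ± 430 in oocytes, 1642 ± 468 in 1-cell embryos, 1084 ± 463 in 2-cell embryos and 1049 ± 580 in blastocysts. Its smallest difference from a stage was -3.89 (limma adjusted p = 2.76e-08). A dim second probe set had a mean of 20.6 at the 8-cell stage and 21.5 in oocytes, and differed from the mean of the other stages by -1.69.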
